A study of Mus musculus with 24 samples.

Results

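The genes that make cholesterol and those governed by the sterol regulatory element-binding proteins (SREBPs) were examined in the RNA and the ribosome-protected fragments (RPFs, or footprints) of mouse hippocampal slices. The 30 genes were a fixed list of sterol synthesis and SREBP pathway genes, taken by symbol, and all 30 were present among the 23845 genes of the RNA data and the 20436 genes of the RPF data. They comprised 5 genes of mevalonate entry, 5 of the isoprenoid and squalene steps, 8 that act after lanosterol, 5 regulators of SREBP, 5 of the fatty acid arm and 2 other targets. Slices came from male wild-type (WT) and germline Tsc2+/- mice aged 28 to 42 days, and had received ACSF vehicle, or DHPG at 100 µM for 5 min. DHPG activates the group I metabotropic glutamate receptors mGluR1 and mGluR5. The 4 groups were WT vehicle, WT DHPG, Tsc2+/- vehicle and Tsc2+/- DHPG, each with 3 RNA and 3 RPF libraries (24 libraries). In all of them CA3 had been cut off, slices of several mice had been pooled, and cycloheximide had been added at 100 µg/ml. RNA and RPF libraries of a group with the same number came from 1 lysate. The Tsc2 deletion was made with a CMV-driven Cre and is carried by all cells, so that neurons and glia are both heterozygous. The libraries of a group were biological replicates by the study's methods, each from its own pool of mice, so the p-values below measure the spread between pools. Tests that combine RNA and RPF did not pair the 2 libraries of a lysate.

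The brain takes up almost no cholesterol from the blood and makes its own, in oligodendrocytes for myelin and in astrocytes and neurons for membranes and synapses. SREBP precursors are held in the endoplasmic reticulum by INSIG proteins and escorted by SCAP to the Golgi when sterols are low, where proteases release the part that acts as a transcription factor. TSC2 is a component of the complex that restrains the kinase mTORC1, and mTORC1 is known to promote SREBP activity, which is the reason for asking whether these genes differ between WT and Tsc2+/- slices, and after DHPG.

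RNA libraries held 14801679 to 24067838 counts and RPF libraries 5296006 to 13613673. The 30 genes together took 0.395% to 0.439% of the counts of an RNA library and 0.408% to 0.443% of an RPF library. Tsc2 itself was lower in every Tsc2+/- library: its RNA was 186 to 214 CPM (counts scaled to a common library size by TMM) in WT and 128 to 137 CPM in Tsc2+/- libraries (log2 fold change -0.52, SE 0.054, adjusted p = 6.46e-07, in vehicle). Summed RNA markers were 11700 to 13700 CPM for neurons, 7220 to 9240 for astrocytes, 5480 to 7040 for oligodendrocytes, 1640 to 1810 for CA1, 343 to 410 for oligodendrocyte precursors, 231 to 304 for microglia, 61.4 to 83.6 for CA3, 46.7 to 71.6 for endothelium, 18.9 to 46 for dentate gyrus, 15.5 to 24.9 for choroid plexus and 2.59 to 35.2 for blood, with no detected marker at 0 in all libraries. Markers of neurons, CA1, astrocytes and oligodendrocytes were thus all present. In RNA averaged over treatments, 5 of 5 dentate gyrus markers (median log2 fold change -0.91) and 4 of 4 blood markers (median log2 fold change -1.19) were below 0 in Tsc2+/- against WT. Of these Prox1 (log2 fold change -0.41, adjusted p = 0.0256) and the globin gene Hbb-bt (log2 fold change -3.06, adjusted p = 0.000503), which shares sequence with its neighbouring copies, were called by edgeR. Summed dentate gyrus RNA was 27 to 46 CPM in WT and 18.9 to 28.9 in Tsc2+/- libraries, and summed blood RNA 16.3 to 35.2 and 2.59 to 17.7. Their part in the genotype values below was not tested. In such bulk samples fewer cells of a type and less RNA per cell cannot be told apart.

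Per unit of length, 23 of the 30 genes in RNA and 22 in RPF were above the median of all genes, and several were among the most heavily footprinted for their RNA. In WT vehicle the median of the 30 genes was 16.5 RNA CPM per kb of transcript against 8.42 for the 12195 genes with a RefSeq length, and 45.5 RPF CPM per kb of coding sequence against 17.3. Scd2, a stearoyl-CoA desaturase of brain, had the highest levels of the list on both scales, at 328 RNA CPM per kb and 1109 RPF CPM per kb (both the 99.1 percentile of all genes). Hmgcs1, which makes HMG-CoA at the start of the pathway, came second with 75.7 RNA CPM per kb and 468 RPF CPM per kb, the 97.2 percentile for RPF. The lowest RNA levels were those of Stard4, a carrier of cholesterol inside cells, at 2.04 CPM per kb and Lss, which closes squalene epoxide into lanosterol, at 2.83 CPM per kb.

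The ratio of RPF per kb to RNA per kb, a measure of ribosome density on each mRNA, ranged from 0.507 to 11.6 over the 30 genes, with a median of 2.36 against 2.25 for all genes, and 17 of the 30 lay above that all-gene median. Idi1, the isomerase that supplies the second isoprenoid building block, stood first with a ratio of 11.6. Its WT vehicle libraries (10.1 to 12.9) were above those of Stard4 (8.13 to 9.33), the next gene by mean, and overlapped those of Ebp, a sterol isomerase (6.66 to 10.5). Ebp had a ratio of 8.02, Cyp51, the lanosterol demethylase, of 6.36, Msmo1, the oxidase that acts next on C4, of 6.33 and Hmgcs1 of 6.18, which placed these 4 between the 91.2 and 95.5 percentiles of all genes. Scap was last by mean with a ratio of 0.507 (4.01 percentile), and Srebf2, the SREBP most devoted to cholesterol synthesis, had 0.771 (9.53 percentile).

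By role, the ratio was above the all-gene median for 7 of 8 genes after lanosterol (median 4.12) and 4 of 5 of the isoprenoid and squalene steps (median 4.47), but for only 1 of 5 regulators (median 1.42), Insig2, and 2 of 5 of the fatty acid arm (median 1.63). Of the genes of mevalonate entry it was above for 2 of 5 (median 1.99). Most neighbours in the order could not be separated: the libraries of 25 of 29 adjacent pairs overlapped. The order had 1 place, between Scd2 and Dhcr7, where each library of the genes before (3.19 or more) was above each library of the genes after (3.18 or less). These ratios are a description, with no test, and depend on taking the RefSeq transcript with the longest coding sequence for each gene.

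**Figure D1:**
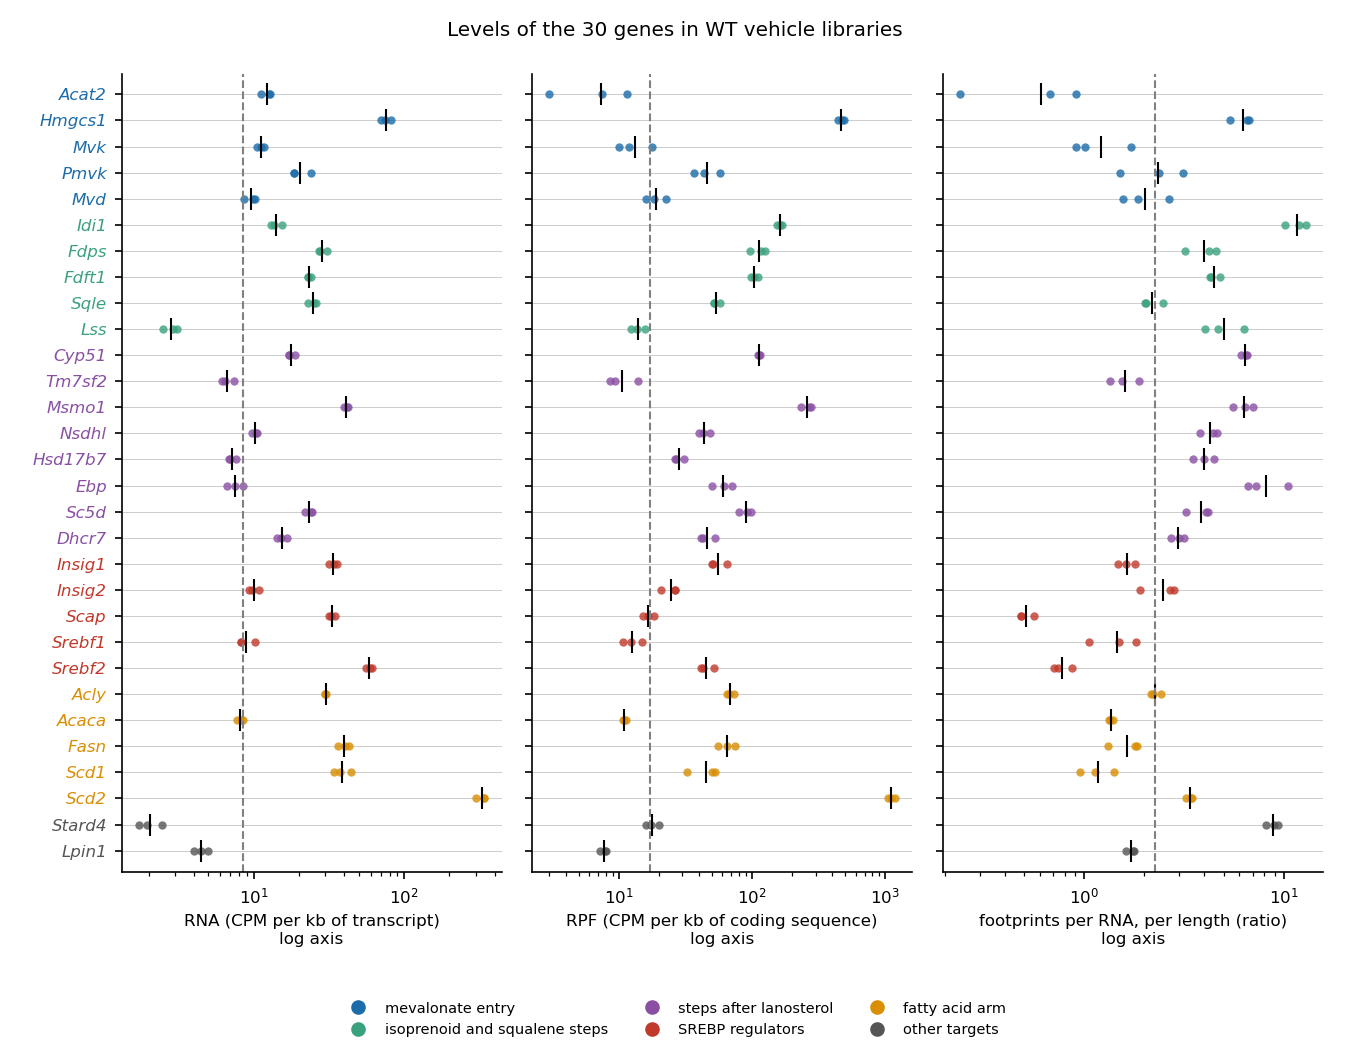
RNA per kb of transcript (left), RPF per kb of coding sequence (middle) and their ratio (right) of the 30 genes in the 3 WT vehicle libraries, on log axes, coloured by role and ordered along the pathway. Points are libraries, black ticks their mean, and dashed lines the median of all 12195 genes (8.42, 17.3 and 2.25). Most enzymes of the sterol steps lie right of the line in the ratio panel, while Scap, Srebf1, Srebf2 and Insig1 lie left of it.

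Promoters were searched because SREBP binds its element together with the factors NF-Y and Sp1, and stretches of a few genes are shown as examples. RefSeq gave 32 promoter sequences (GRCm38.p6) for 24 of the 30 genes, and both strands of the 250 bases before each start site were searched. The core of the sterol regulatory element, TCACNCCAC, was found in 1 of these 32 promoters, that of Hmgcs1, and in 1.05% of all 32851 promoters. The NF-Y box, CCAAT, was in 20 of 32 (62.5%) against 33.8% of all, the Sp1-type GC box, GGGCGG, in 23 of 32 (71.9%) against 32.7%, and the E box, CACGTG, which SREBP1 can also bind, in 5 of 32 (15.6%) against 6.02%. The lines below show the Hmgcs1 element at chr13:119690204-119690232 (gene on the plus strand, 137 to 129 bases before the start). They also show the NF-Y box nearest the start, with its flanks, for Cyp51 at chr5:4104712-4104736 (minus, 29 to 25 bases before), Msmo1 at chr8:64733619-64733643 (minus, 55 to 51 bases before) and Srebf2 at chr15:82147124-82147148 (plus, 135 to 131 bases before). Motifs were counted separately and could overlap. Capitals mark the motif, and ATTGG is CCAAT read on the other strand.
Hmgcs1: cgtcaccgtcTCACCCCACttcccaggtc
Cyp51: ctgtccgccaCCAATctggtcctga
Msmo1: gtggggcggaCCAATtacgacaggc
Srebf2: tcgcgcgccgATTGGctaatgcaag
Acaca, Acat2, Acly, Lpin1 and Scap held no CCAAT in these windows. A match describes these letters only.

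None of the 30 genes passed the test in any comparison. Each of the 7 comparisons was made in RNA, in RPF and in footprints per RNA (translational efficiency, TE: the change in RPF less that in RNA), and in all 21 tests 0 of 30 genes had an adjusted p under 0.1 in the edgeR quasi-likelihood test with Benjamini-Hochberg adjustment over all genes tested. With the same model in DESeq2 the count was 0 in 20 of the 21 tests and 1 in the other (Scd1). That test, RNA genotype averaged over treatments, called 38 genes in all in DESeq2 and 36 in edgeR. The smallest adjusted p of the 30 genes in edgeR was 0.138. In each of the 21 tests the 95% intervals of 30 of 30 genes lay within 1 on the log2 scale, which is a 2-fold change, and in vehicle the genotype interval lay within 0.5 on the log2 scale for 30 of 30 genes in RNA, 25 of 30 in RPF and 24 of 30 in TE. For DHPG in WT the same held for 30, 27 and 25 of 30 genes. The comparisons within vehicle and within WT share the WT vehicle libraries.

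Between Tsc2+/- and WT slices in vehicle, the sterol and fatty acid genes differed by little. In RNA and RPF the genes nearest to a difference were higher in Tsc2+/-: Cyp51 and Scd1 in RNA and Msmo1 in RPF. Of the 30 genes 0 were called in RNA, RPF and TE, where 14 of 14516 (0.0964%), 3 of 12877 (0.0233%) and 0 of 12785 (0%) of all genes tested were. An unadjusted p under 0.05 was found for 3, 3 and 3 of the 30, against 4.95%, 6.71% and 5.09% of genes tested. Of the TE genes 2 were higher in Tsc2+/- and 1, of the fatty acid arm, was lower. The median log2 fold change of the 30 genes was 0.016 in RNA, 0.041 in RPF and 0.0022 in TE, where the medians of all genes were -0.0019, -0.0034 and 0.0058. The medians of the 30 genes changed sign when libraries were left out: they ran from -0.0093 (without replicate 3 of all groups) to 0.038 (without WT vehicle replicate 2) in RNA and from -0.0085 (without replicate 3 of all groups) to 0.091 (without WT vehicle replicate 1) in RPF. In TE they ran from -0.032 (without Tsc2+/- vehicle replicate 3) to 0.059 (without WT vehicle replicate 1). By role, 4 of 5 genes of the fatty acid arm and 5 of 8 after lanosterol had a positive RNA value, and 8 of 8 after lanosterol a positive RPF value (median 0.12), against 49.2% of all genes tested in RPF. None of these 8 was called. The RPF of 7 of 10 oligodendrocyte markers was also above 0 (median log2 fold change 0.090) and that of 3 below. Of these markers 3 had an unadjusted p under 0.05, all higher, and 0 were called. The RPF of 5 of 5 dentate gyrus markers, at low levels, was below 0 (median log2 fold change -0.59, 1 under an unadjusted p of 0.05, 0 called). The part of either marker list in the RPF values of the 30 genes was not tested.

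**Figure D2:**
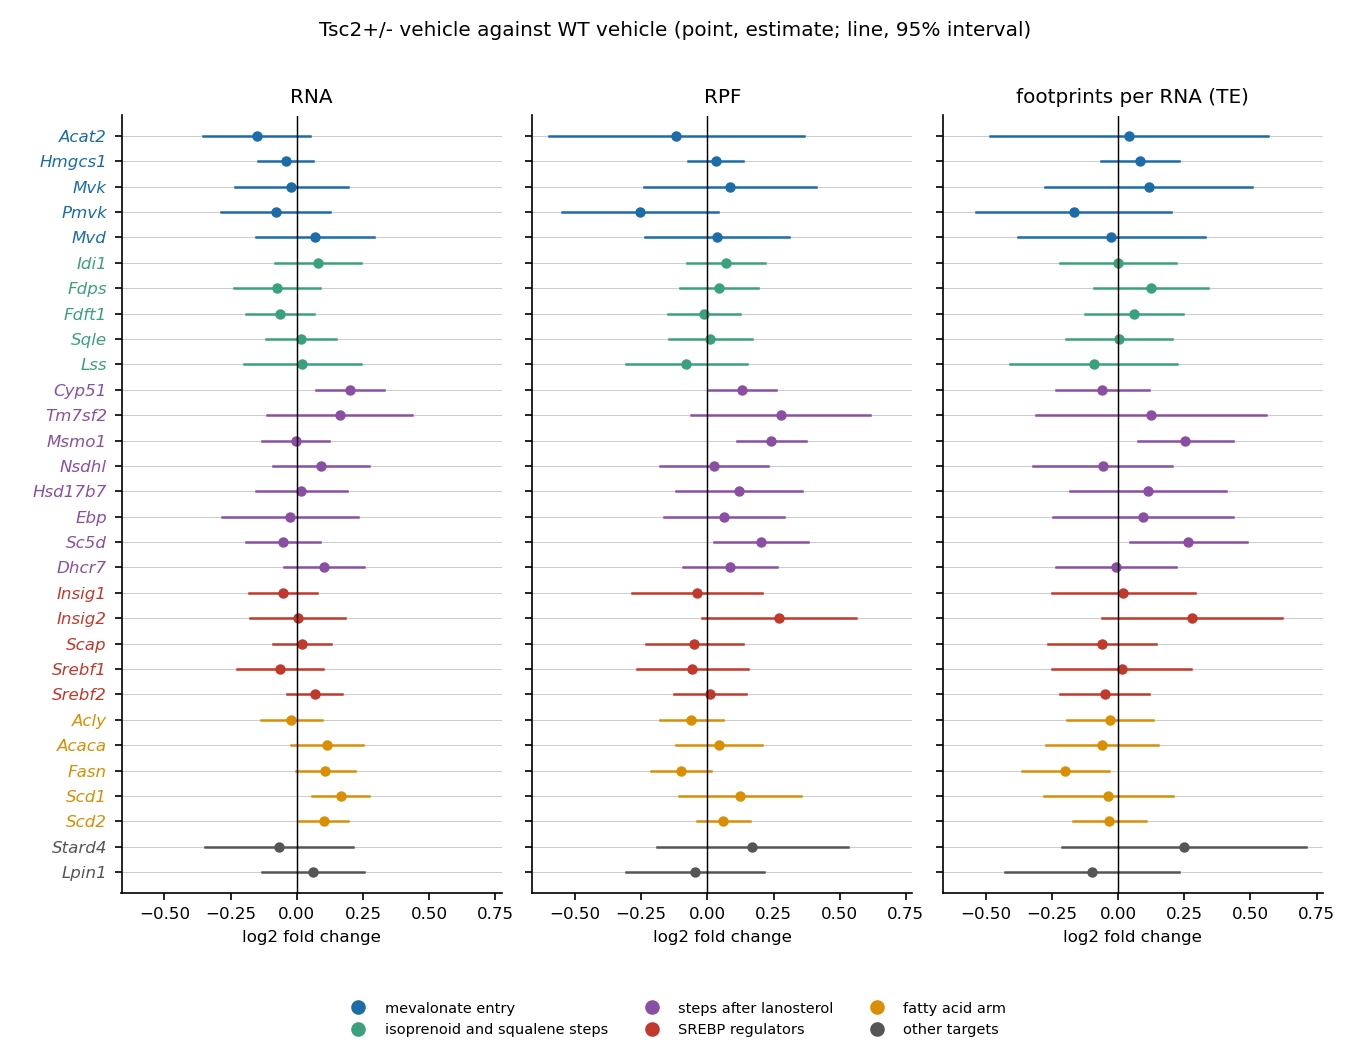
Log2 fold change of Tsc2+/- vehicle over WT vehicle for each of the 30 genes in RNA, RPF and TE, with 3 libraries a group. Points are estimates and lines 95% intervals, coloured by role. In RNA all 30 intervals stay within 0.5 of 0, and the RPF points of the 8 genes after lanosterol all lie right of 0.

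With DHPG present, Scd1 and Acaca were the genes nearest to a difference between genotypes in RNA, and Lpin1 in RPF. Of the 30 genes 0 were called in RNA, RPF and TE, where 7 of 14516 (0.0482%), 2 of 12877 (0.0155%) and 0 of 12785 (0%) of all genes tested were. An unadjusted p under 0.05 was found for 2, 1 and 1 of the 30, against 4.73%, 4.25% and 2.7% of genes tested. All of these genes were higher in Tsc2+/-, and Lpin1 was also the TE gene. Median log2 fold changes were 0.0016 in RNA, -0.0047 in RPF and 0.0048 in TE. Among the genes after lanosterol 4 of 8 had a positive RPF value, where in vehicle it had been 8 of 8. That difference between treatments was tested gene by gene as the interaction, below.

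Over both treatments together, the RNA of Scd1, Cyp51, Acaca and Scd2 was higher in Tsc2+/- at an unadjusted p under 0.05. In RNA, RPF and TE 0 of the 30 genes were called, where 36 of 14516 (0.248%), 7 of 12877 (0.0544%) and 0 of 12785 (0%) of all genes tested were. Those with an unadjusted p under 0.05 were 4, 2 and 0 of the 30, against 6.28%, 6.83% and 3.97% of genes tested. Scd1 came closest to a call (log2 fold change 0.15, SE 0.038, 95% interval 0.072 to 0.22, adjusted p = 0.138). It passed with DESeq2 (log2 fold change 0.15, adjusted p = 0.037), where 38 genes were called in all. It also passed in edgeR without the RNA library of WT vehicle replicate 2 (0.17, adjusted p = 0.0706), where 33 were. It did not pass with ComBat batch correction then DESeq2 (0.14, adjusted p = 0.376). Nor did it in edgeR with no replicate block (adjusted p = 0.988) or without replicate 3 of all groups (0.13, adjusted p = 0.613).

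In WT slices given DHPG for 5 min, the values nearest to a difference were those of Msmo1 in RPF and of Fasn in TE. Of the 30 genes 0 were called in RNA, RPF and TE, where 0 of 14516 (0%), 4 of 12877 (0.0311%) and 5 of 12785 (0.0391%) of all genes tested were. An unadjusted p under 0.05 was found for 2, 2 and 3 of the 30, against 6.07%, 7.07% and 8.67% of genes tested. Fasn and Scd1 were the RNA genes under 0.05, both higher after DHPG, Msmo1 and Insig2 the RPF genes, and Msmo1, Sc5d and Fasn the TE genes, Fasn being the lower one. Medians were 0.035 in RNA, 0.056 in RPF and 0.0040 in TE. As with genotype in vehicle, 8 of 8 genes after lanosterol had a positive RPF value (median 0.11), with the same WT vehicle libraries as the reference in both.

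**Figure D3:**
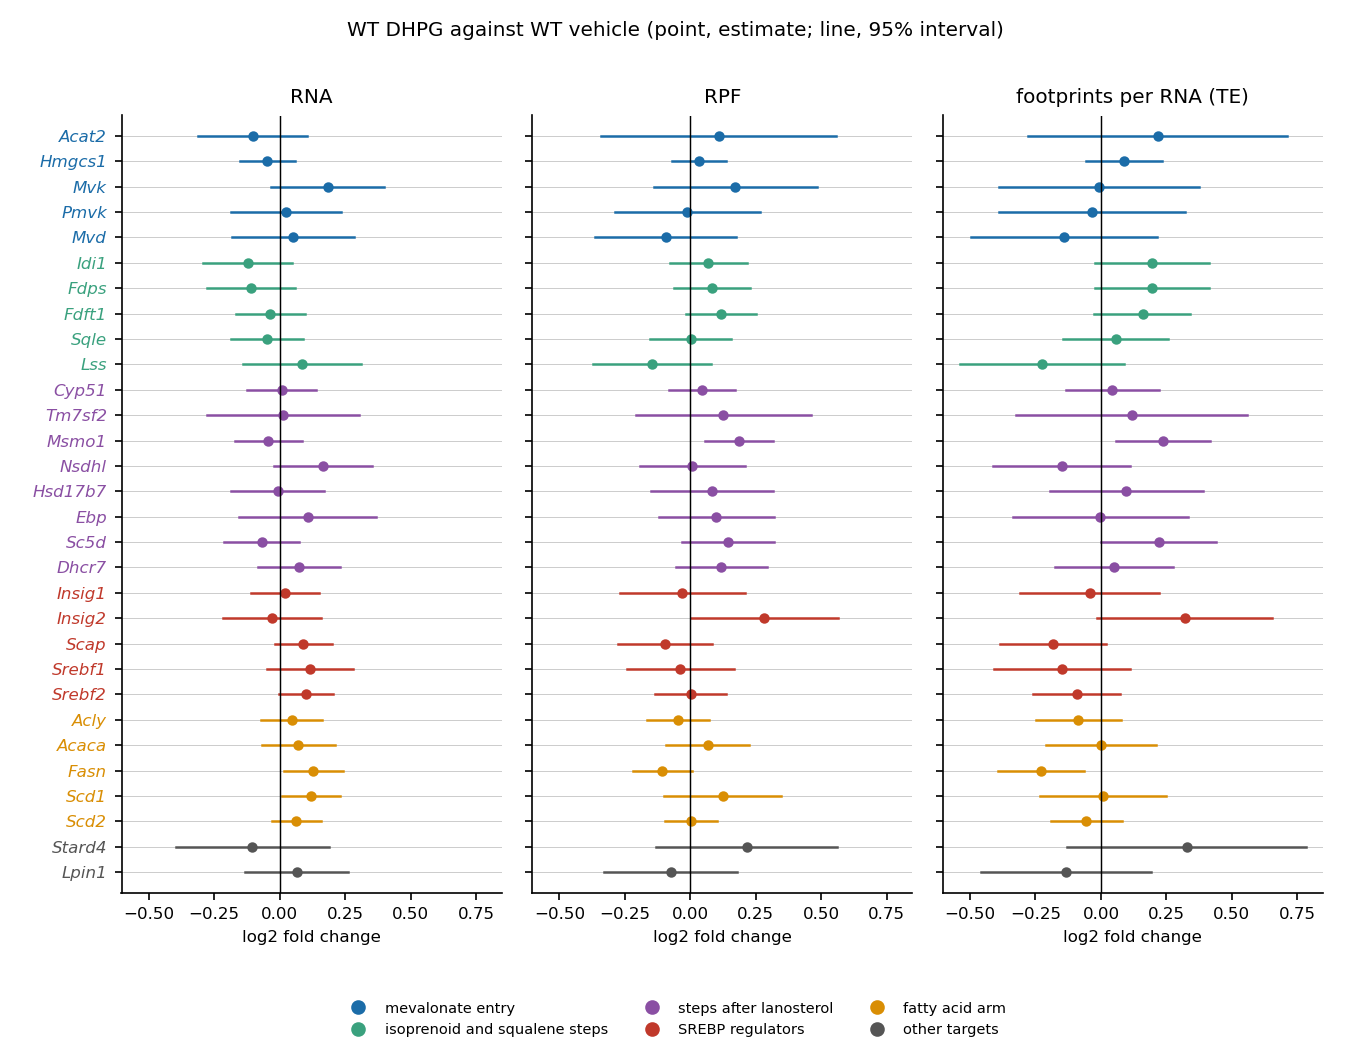
Log2 fold change of WT DHPG over WT vehicle for each of the 30 genes in RNA, RPF and TE, with 3 libraries a group. Points are estimates and lines 95% intervals, coloured by role. Most intervals include 0, and in TE the interval of Fasn lies below 0 and those of Msmo1 and Sc5d above it.

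In Tsc2+/- slices DHPG was followed by lower Idi1 RNA at an unadjusted p under 0.05, and by no gene under it in RPF. Of the 30 genes 0 were called in RNA, RPF and TE, where 0 of 14516 (0%), 0 of 12877 (0%) and 0 of 12785 (0%) of all genes tested were. An unadjusted p under 0.05 was found for 3, 0 and 3 of the 30, against 4.86%, 3.87% and 3.32% of genes tested. The medians were 0.024 in RNA, -0.0026 in RPF and -0.025 in TE. Srebf1 RNA was higher (log2 fold change 0.18, SE 0.078, adjusted p = 0.959) and Stard4 RNA lower (log2 fold change -0.33, SE 0.14, adjusted p = 0.959), neither of them called.

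Averaged over genotypes, the effect of DHPG gave the largest number of unadjusted p-values under 0.05 among the 30 genes, 5 in RNA and 6 in TE. In RNA, RPF and TE 0 of the 30 genes were called, where 3 of 14516 (0.0207%), 4 of 12877 (0.0311%) and 6 of 12785 (0.0469%) of all genes tested were. Those with an unadjusted p under 0.05 were 5, 1 and 6 of the 30, against 7.61%, 6.96% and 8.04% of genes tested. The RNA genes were Mvk, Srebf1 and Scd1, higher after DHPG, and Idi1 and Stard4, lower. In TE they were Idi1, Fdft1 and Stard4, higher, and Lss, Scap and Fasn, lower. For Idi1 and Stard4 the TE and RNA values thus had opposite signs, the RNA change being subtracted in TE. The RPF of all 10 oligodendrocyte markers was lower after DHPG in this comparison (median log2 fold change -0.11, 6 of 10 under an unadjusted p of 0.05, 0 called). Within Tsc2+/- slices the median was -0.175 (6 of 10 under 0.05) and within WT slices -0.026 (0 of 10). The RPF of 5 of 5 dentate gyrus markers, at low levels, was also lower averaged over genotypes (median log2 fold change -0.45, 2 under 0.05, 0 called). Within Tsc2+/- slices 5 of 5 were lower (median -0.57, 3 under 0.05) and within WT slices 4 of 5 (median -0.29, 0 under 0.05). The part of either marker list in the values of the 30 genes was not tested.

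The interaction asks whether DHPG acted differently in the genotypes, and gave 0 calls over all genes in RNA, RPF and TE. In RNA, RPF and TE 0 of the 30 genes were called, where 0 of 14516 (0%), 0 of 12877 (0%) and 0 of 12785 (0%) of all genes tested were. Those with an unadjusted p under 0.05 were 0, 1 and 2 of the 30, against 3.51%, 3.84% and 3.63% of genes tested. Msmo1 was the RPF gene (log2 fold change -0.25, SE 0.090, adjusted p = 0.996), and Msmo1 and Sc5d the TE genes (log2 fold change -0.29, SE 0.13, adjusted p = 1 for Msmo1). Insig2 and Lpin1 had the extreme interaction values in RPF (-0.40 and 0.33) and in TE (-0.40 and 0.44), on low RPF counts. All 10 oligodendrocyte markers had a negative interaction value in RPF (median log2 fold change -0.14, 4 under an unadjusted p of 0.05, 0 called). The same held in RNA (median log2 fold change -0.10, 3 under 0.05, 0 called). Of 5 dentate gyrus markers 4 were negative in RPF (median -0.28, 2 under 0.05) and 4 in RNA (median -0.40, 0 under 0.05), with 0 called. The part of either marker list in the Msmo1 and Sc5d values was not tested.

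Mevalonate entry is the part of the pathway in which acetyl-CoA is turned into mevalonate and then into its pyrophosphate. Hmgcs1 (chromosome 13, 119690351 to 119708260, plus strand, GRCm38) was the one gene of this role with values by library. Its RNA was, in replicates 1, 2 and 3, 292, 251 and 269 in WT vehicle, 278, 250 and 257 in WT DHPG, 262, 259 and 266 in Tsc2+/- vehicle and 275, 240 and 253 in Tsc2+/- DHPG CPM. Its RPF was 658, 708 and 743 in WT vehicle, 735, 691 and 733 in WT DHPG, 736, 692 and 727 in Tsc2+/- vehicle and 740, 683 and 767 in Tsc2+/- DHPG CPM. All 4 groups overlapped in RNA, and in RPF the lowest library was WT vehicle replicate 1 (log2 fold change -0.041, SE 0.051, adjusted p = 0.984 in RNA and log2 fold change 0.032, SE 0.051, adjusted p = 0.942 in RPF for genotype in vehicle). Mvk, the mevalonate kinase, spanned 18.1 to 24.7 CPM in RNA and 11.8 to 21.3 in RPF. Pmvk, the next kinase, spanned 21.3 to 28.8 and 17 to 30, and Mvd, the decarboxylase, 15.1 to 20.4 and 16.8 to 26.6. Mvk RNA was higher after DHPG averaged over genotypes (log2 fold change 0.17, SE 0.073, adjusted p = 0.613), not called. Acat2, a cytosolic thiolase, spanned 19.3 to 27 CPM in RNA and 3.42 to 13.2 in RPF, where WT vehicle replicate 3 had the lowest value. Acat2 lies on chromosome 17 at 12943042 to 12960725, 11.7 Mb from Tsc2 and beside the closely similar Acat3, so that its reads may be shared.

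The isoprenoid and squalene steps carry the pathway from isopentenyl pyrophosphate to lanosterol. Idi1 (chromosome 13, 8885606 to 8892396, plus strand, GRCm38) had RNA values, in replicates 1, 2 and 3, of 43.9, 37.3 and 38.9 in WT vehicle, 39.1, 34.5 and 36.6 in WT DHPG, 45.8, 36.1 and 45 in Tsc2+/- vehicle and 38.7, 35.9 and 32.7 in Tsc2+/- DHPG CPM. The Tsc2+/- DHPG libraries were each below the Tsc2+/- vehicle library of the same number, and so were the WT DHPG libraries below WT vehicle, while the groups overlapped (log2 fold change -0.24, SE 0.080, 95% interval -0.40 to -0.080, adjusted p = 0.959, in Tsc2+/- slices, and log2 fold change -0.18, SE 0.058, adjusted p = 0.518 averaged over genotypes). Without replicate 3 of all groups the Tsc2+/- value was -0.13, and without replicate 2 it was -0.35. Its RPF was 123, 133 and 127 in WT vehicle, 136, 134 and 134 in WT DHPG, 140, 126 and 137 in Tsc2+/- vehicle and 143, 116 and 136 in Tsc2+/- DHPG CPM. In RPF the WT DHPG libraries were above those of WT vehicle and the Tsc2+/- groups overlapped. The ratio of RPF CPM to RNA CPM was 2.8, 3.56 and 3.28 in WT vehicle, 3.47, 3.87 and 3.65 in WT DHPG, 3.05, 3.51 and 3.04 in Tsc2+/- vehicle and 3.7, 3.23 and 4.16 in Tsc2+/- DHPG. It was higher after DHPG in 5 of 6 same-numbered pairs (log2 fold change 0.21, SE 0.076, adjusted p = 0.469, TE averaged over genotypes).

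Sqle (chromosome 15, 59315092 to 59331193, plus strand, GRCm38), the squalene epoxidase and a rate-limiting step, had RNA values of 69.6, 71 and 63.4 in WT vehicle, 67.4, 67 and 63.3 in WT DHPG, 71.7, 66.9 and 67.9 in Tsc2+/- vehicle and 68.9, 66 and 69.8 in Tsc2+/- DHPG CPM. Its RPF was 85.6, 86.8 and 94.7 in WT vehicle, 92.7, 87 and 86.4 in WT DHPG, 88.6, 89.1 and 91 in Tsc2+/- vehicle and 87.9, 74.4 and 84.3 in Tsc2+/- DHPG CPM. All groups overlapped on both scales except that the RPF of Tsc2+/- DHPG lay below that of Tsc2+/- vehicle, without a call (log2 fold change -0.12, SE 0.077, adjusted p = 0.999). Fdps, which makes farnesyl pyrophosphate, spanned 35.7 to 44.5 CPM in RNA and 117 to 156 in RPF. Fdft1, the squalene synthase, spanned 77.1 to 88.6 and 118 to 137, and its RPF was higher after DHPG averaged over genotypes (log2 fold change 0.13, SE 0.047, adjusted p = 0.57). Lss spanned 15.8 to 21.9 and 25 to 33.9, and its TE was lower after DHPG (log2 fold change -0.27, SE 0.11, adjusted p = 0.547).

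The steps after lanosterol remove methyl groups and move double bonds until cholesterol is reached. Cyp51 (chromosome 5, 4080674 to 4104697, minus strand, GRCm38) had RNA values, in replicates 1, 2 and 3, of 81.3, 74.8 and 74.7 in WT vehicle, 80.3, 78.1 and 73.3 in WT DHPG, 87.5, 90.4 and 86.3 in Tsc2+/- vehicle and 78, 84.5 and 84.7 in Tsc2+/- DHPG CPM. In vehicle all 3 Tsc2+/- libraries were above all 3 WT libraries (log2 fold change 0.20, SE 0.063, 95% interval 0.071 to 0.33, adjusted p = 0.811), while under DHPG the genotypes overlapped (log2 fold change 0.097, SE 0.064, adjusted p = 0.996). Its RPF was 165, 164 and 161 in WT vehicle, 168, 169 and 168 in WT DHPG, 173, 180 and 185 in Tsc2+/- vehicle and 172, 170 and 182 in Tsc2+/- DHPG CPM, and again no Tsc2+/- vehicle library overlapped a WT vehicle library (log2 fold change 0.13, SE 0.063, adjusted p = 0.731). The TE value of the same comparison was on the other side of 0 and had a 95% interval of -0.24 to 0.12 (log2 fold change -0.059, SE 0.088, adjusted p = 0.973).

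Msmo1 (chromosome 8, 64718123 to 64733578, minus strand, GRCm38) was the gene of the list with the smallest unadjusted p in RPF. Its RNA was 77.9, 73.4 and 76.8 in WT vehicle, 73, 74.8 and 73.1 in WT DHPG, 77.5, 77.9 and 71.9 in Tsc2+/- vehicle and 77, 75 and 72.6 in Tsc2+/- DHPG CPM. Its RPF was 194, 229 and 220 in WT vehicle, 252, 241 and 235 in WT DHPG, 246, 254 and 260 in Tsc2+/- vehicle and 245, 233 and 246 in Tsc2+/- DHPG CPM. The 3 WT vehicle libraries were below the other 9 libraries, and the other 3 groups, at 233 to 260 CPM, overlapped. Against WT vehicle, the RPF difference was positive for Tsc2+/- vehicle (log2 fold change 0.24, SE 0.064, 95% interval 0.11 to 0.37, adjusted p = 0.389). It was also positive for WT DHPG (log2 fold change 0.19, SE 0.064, 95% interval 0.056 to 0.32, adjusted p = 0.521). The ratio of RPF CPM to RNA CPM was 2.48, 3.13 and 2.86 in WT vehicle, 3.46, 3.22 and 3.22 in WT DHPG, 3.17, 3.26 and 3.61 in Tsc2+/- vehicle and 3.18, 3.11 and 3.38 in Tsc2+/- DHPG (log2 fold change 0.25, SE 0.089, adjusted p = 0.931, for genotype in vehicle). The size of these values rested in part on WT vehicle replicate 1: without that RPF library the genotype value in RPF was 0.16 (adjusted p = 0.597), and without replicate 1 of all groups the DHPG value in WT was 0.080 (adjusted p = 0.922).

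Msmo1 TE for DHPG in WT passed the test when the RNA and RPF libraries of WT vehicle replicate 2 were both left out (0.34 in place of 0.24, adjusted p = 0.0685 in place of 0.412), a fit in which 342 genes were called against 5 with that lysate. Sc5d, a sterol desaturase, had an RPF of 66.9 to 90.7 CPM, lowest in WT vehicle replicate 1 (log2 fold change 0.20, SE 0.087, adjusted p = 0.686, for genotype in vehicle). The RNA of Sc5d spanned 48.7 to 55.6 CPM. Tm7sf2, a sterol reductase, spanned 8.72 to 12.5 CPM in RNA and 10.3 to 18 in RPF. Nsdhl, which removes the C4 carboxyl group, spanned 21.6 to 26.3 and 38.3 to 51.7, and Hsd17b7, the ketoreductase of the same complex, 28.8 to 38.4 and 24.7 to 33.9. Ebp spanned 11.6 to 16.7 CPM in RNA and 31.6 to 44.5 in RPF, and Dhcr7, whose loss causes Smith-Lemli-Opitz syndrome, 40.3 to 51.3 and 56.2 to 73.3. For these 5 genes no test gave an unadjusted p under 0.05.

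The regulators decide how much SREBP leaves the endoplasmic reticulum. Srebf2 (chromosome 15, 82147269 to 82205379, plus strand, GRCm38) had RNA values, in replicates 1, 2 and 3, of 272, 278 and 256 in WT vehicle, 290, 284 and 290 in WT DHPG, 291, 276 and 279 in Tsc2+/- vehicle and 290, 275 and 296 in Tsc2+/- DHPG CPM. Its RPF was 173, 142 and 138 in WT vehicle, 156, 149 and 149 in WT DHPG, 161, 146 and 149 in Tsc2+/- vehicle and 161, 142 and 154 in Tsc2+/- DHPG CPM. WT vehicle included the lowest RNA and both the highest and the lowest RPF values, and in RNA all 3 WT DHPG libraries were above all 3 of WT vehicle (log2 fold change 0.10, SE 0.051, adjusted p = 0.807). Srebf1 (chromosome 11, 60199084 to 60224186, minus strand, GRCm38), which also drives fatty acid genes, had RNA values of 35.4, 44 and 35.7 in WT vehicle, 41.2, 43.7 and 40.6 in WT DHPG, 35.8, 38.3 and 36.7 in Tsc2+/- vehicle and 41.9, 41.3 and 42.2 in Tsc2+/- DHPG CPM. Its RPF was 49.7, 35.6 and 41.1 in WT vehicle, 45.1, 42.3 and 35 in WT DHPG, 42.7, 40.8 and 37.4 in Tsc2+/- vehicle and 43.8, 41.5 and 34.9 in Tsc2+/- DHPG CPM. In Tsc2+/- slices the 3 DHPG libraries were above the 3 vehicle libraries in RNA and not in RPF (log2 fold change 0.15, SE 0.056, adjusted p = 0.547 in RNA averaged over genotypes, log2 fold change -0.025, SE 0.072, adjusted p = 0.979 in RPF).

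Insig1 (chromosome 5, 28071412 to 28078662, plus strand, GRCm38), itself a strong SREBP target, had RNA values of 95.5, 90.2 and 83.5 in WT vehicle, 85.3, 96.8 and 89.6 in WT DHPG, 83.5, 87.9 and 87.4 in Tsc2+/- vehicle and 90, 92.7 and 91.4 in Tsc2+/- DHPG CPM. Its RPF was 46.7, 36.4 and 36.5 in WT vehicle, 43.4, 36.2 and 37.5 in WT DHPG, 40, 32.6 and 45.1 in Tsc2+/- vehicle and 37.5, 47.1 and 39.2 in Tsc2+/- DHPG CPM. The groups overlapped, except that the RNA of Tsc2+/- DHPG was above that of Tsc2+/- vehicle (log2 fold change 0.082, SE 0.062, adjusted p = 0.959), and for genotype in vehicle the 95% interval of the RNA log2 fold change was -0.18 to 0.077. Scap (chromosome 9, 110333288 to 110384949, plus strand, GRCm38) had RNA values of 138, 147 and 133 in WT vehicle, 147, 151 and 147 in WT DHPG, 139, 146 and 138 in Tsc2+/- vehicle and 145, 149 and 144 in Tsc2+/- DHPG CPM. Its RPF was 69, 62.7 and 57.4 in WT vehicle, 56.1, 63 and 59.8 in WT DHPG, 65.5, 58.3 and 59.2 in Tsc2+/- vehicle and 60.8, 52.7 and 50.3 in Tsc2+/- DHPG CPM. The ratio of RPF CPM to RNA CPM was 0.501, 0.428 and 0.431 in WT vehicle, 0.381, 0.417 and 0.408 in WT DHPG, 0.471, 0.399 and 0.428 in Tsc2+/- vehicle and 0.418, 0.355 and 0.349 in Tsc2+/- DHPG. It was below the vehicle library of the same number after DHPG in 6 of 6 pairs, with no overlap between the WT groups and with overlap between the Tsc2+/- groups (log2 fold change -0.20, SE 0.072, 95% interval -0.34 to -0.052, adjusted p = 0.469, averaged over genotypes). Insig2 spanned 24.5 to 29.4 CPM in RNA and 12.8 to 20 in RPF, with the lowest RPF in WT vehicle replicate 1.

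**Figure D4:**
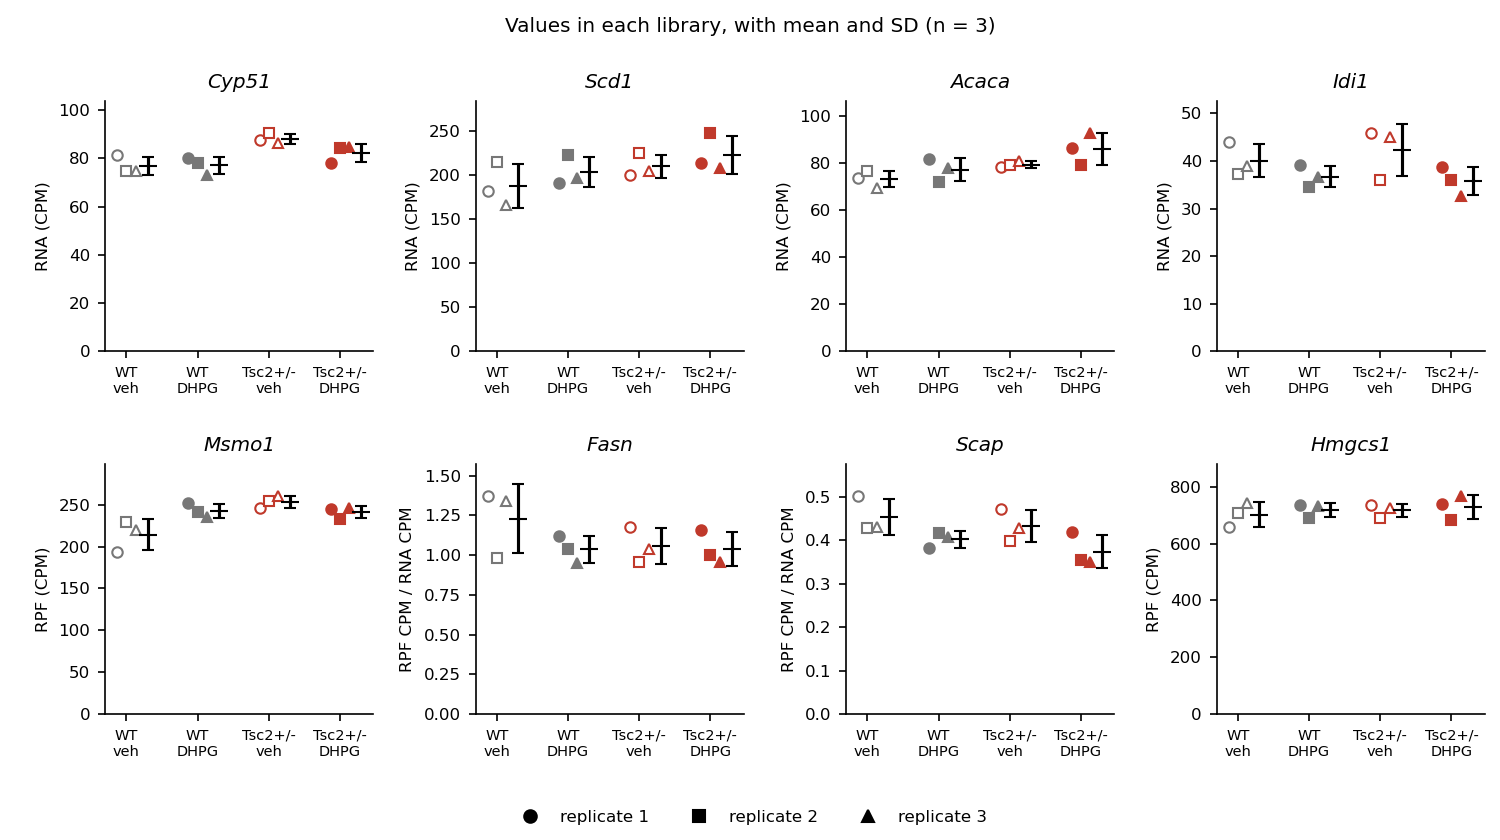
Values in each library of 8 genes, by group. RNA CPM is shown for Cyp51, Scd1, Acaca and Idi1, RPF CPM for Msmo1 and Hmgcs1, and the ratio of RPF CPM to RNA CPM for Fasn and Scap. Symbols are replicates 1, 2 and 3, open for vehicle and filled for DHPG, grey for WT and red for Tsc2+/-, and black bars give the mean and SD (n = 3), with axes from 0. The Cyp51 vehicle groups and the Msmo1 vehicle groups do not overlap, and Scd1 is highest in replicate 2 of every group.

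The fatty acid arm turns citrate into unsaturated fatty acids. Scd1 (chromosome 19, 44394450 to 44407709, minus strand, GRCm38), a stearoyl-CoA desaturase, had RNA values, in replicates 1, 2 and 3, of 182, 215 and 166 in WT vehicle, 191, 223 and 196 in WT DHPG, 200, 225 and 204 in Tsc2+/- vehicle and 213, 247 and 208 in Tsc2+/- DHPG CPM. Replicate 2 was the highest of each group, and the Tsc2+/- library was above the WT library of the same number in 3 of 3 pairs in vehicle (log2 fold change 0.17, SE 0.053, 95% interval 0.058 to 0.27, adjusted p = 0.811) and in 3 of 3 in DHPG (log2 fold change 0.13, SE 0.053, adjusted p = 0.994). Its RPF was 53.3, 50.6 and 32.9 in WT vehicle, 54.6, 50.8 and 44.6 in WT DHPG, 52.5, 48.9 and 49.2 in Tsc2+/- vehicle and 44.3, 58.3 and 48 in Tsc2+/- DHPG CPM, with WT vehicle replicate 3 the lowest (log2 fold change 0.057, SE 0.078, adjusted p = 0.915, averaged over treatments). The groups overlapped in both assays, and without the replicate number in the model the RNA value for genotype averaged over treatments had an adjusted p of 0.988.

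Scd2 (chromosome 19, 44293676 to 44306864, plus strand, GRCm38) had RNA values of 1860, 1850 and 1650 in WT vehicle, 1850, 1860 and 1890 in WT DHPG, 1910, 1920 and 1920 in Tsc2+/- vehicle and 1860, 1970 and 1960 in Tsc2+/- DHPG CPM. Its RPF was 1200, 1120 and 1060 in WT vehicle, 1140, 1160 and 1090 in WT DHPG, 1170, 1160 and 1200 in Tsc2+/- vehicle and 1130, 1230 and 1150 in Tsc2+/- DHPG CPM. Each RNA value of Tsc2+/- vehicle was above those of WT vehicle (log2 fold change 0.10, SE 0.046, adjusted p = 0.961). The oligodendrocyte markers, a cell type that makes much sterol and fatty acid for myelin, had values in the same direction in vehicle. Their summed RNA was 5480 to 6480 CPM in WT vehicle and 5990 to 7040 in Tsc2+/- vehicle, 9 of 10 were above 0 (median log2 fold change 0.089). Of these markers 4 had an unadjusted p under 0.05, 0 were called and none was at 0. For genotype under DHPG 6 of the 10 markers were below 0 in RNA (median log2 fold change -0.064, 2 under an unadjusted p of 0.05, both lower), where Scd1 was higher in Tsc2+/- in 3 of 3 pairs. The part of these markers in the values of Scd1, Scd2 and Cyp51 was not tested.

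Acaca (chromosome 11, 84129635 to 84401651, plus strand, GRCm38), the acetyl-CoA carboxylase that commits carbon to fatty acids, had RNA values of 73.8, 76.6 and 69.5 in WT vehicle, 81.9, 72.1 and 78 in WT DHPG, 78.2, 79.2 and 81 in Tsc2+/- vehicle and 86.4, 79.3 and 92.7 in Tsc2+/- DHPG CPM. Its RPF was 76.8, 78.5 and 75.3 in WT vehicle, 80.2, 83.5 and 78.5 in WT DHPG, 79.3, 75 and 84.3 in Tsc2+/- vehicle and 82.3, 73.7 and 78.1 in Tsc2+/- DHPG CPM. In vehicle all Tsc2+/- libraries were above all WT libraries in RNA, and in DHPG the groups overlapped (log2 fold change 0.14, SE 0.047, 95% interval 0.040 to 0.23, adjusted p = 0.571, averaged over treatments). In RPF the same comparison had a value close to 0 (log2 fold change -0.00038, SE 0.055, adjusted p = 0.999), and without replicate 3 of all groups the RNA value was 0.085 (adjusted p = 0.979).

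Fasn (chromosome 11, 120805958 to 120825166, minus strand, GRCm38), the fatty acid synthase, had RNA values of 404, 425 and 360 in WT vehicle, 422, 427 and 449 in WT DHPG, 426, 431 and 424 in Tsc2+/- vehicle and 432, 414 and 459 in Tsc2+/- DHPG CPM. Its RPF was 555, 416 and 483 in WT vehicle, 474, 442 and 427 in WT DHPG, 503, 411 and 440 in Tsc2+/- vehicle and 504, 413 and 440 in Tsc2+/- DHPG CPM, highest in replicate 1 of every group. The ratio of RPF CPM to RNA CPM was 1.37, 0.98 and 1.34 in WT vehicle, 1.12, 1.04 and 0.951 in WT DHPG, 1.18, 0.954 and 1.04 in Tsc2+/- vehicle and 1.16, 0.998 and 0.959 in Tsc2+/- DHPG. Of the 3 WT vehicle lysates, replicates 1 and 3 had the highest ratios of all 12 and replicate 2 was within the range of the other groups, and the value for DHPG in WT depended on it (log2 fold change -0.23, SE 0.081, 95% interval -0.39 to -0.066, adjusted p = 0.365). Without both libraries of WT vehicle replicate 2 it was -0.36 (adjusted p = 0.0234), and genotype in vehicle was then -0.33 (adjusted p = 0.095) in place of -0.20. That fit called far more of all genes for DHPG in WT, as given for Msmo1. With the lysate kept, 5 of 12785 genes were called in TE for DHPG in WT and 0 for genotype in vehicle. Without replicate 3 of all groups the DHPG value was -0.10 (adjusted p = 0.853).

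Acly (chromosome 11, 100476352 to 100528000, minus strand, GRCm38), which cleaves citrate to acetyl-CoA for both branches, had RNA values of 133, 134 and 132 in WT vehicle, 137, 132 and 143 in WT DHPG, 129, 135 and 128 in Tsc2+/- vehicle and 130, 140 and 131 in Tsc2+/- DHPG CPM. Its RPF was 236, 217 and 210 in WT vehicle, 220, 214 and 208 in WT DHPG, 214, 215 and 207 in Tsc2+/- vehicle and 225, 213 and 200 in Tsc2+/- DHPG CPM. The groups overlapped in both assays, and its genotype interval in vehicle was -0.14 to 0.094 in RNA and -0.18 to 0.060 in RPF. Lpin1 (chromosome 12, 16535669 to 16653903, minus strand, GRCm38), a phosphatidate phosphatase and coregulator that mTORC1 phosphorylates, had RNA values of 23.1, 28.4 and 25.4 in WT vehicle, 23.9, 28.4 and 28.5 in WT DHPG, 26.2, 24.2 and 30.3 in Tsc2+/- vehicle and 23.2, 26.9 and 27.7 in Tsc2+/- DHPG CPM. Its RPF was 19.5, 21.8 and 21.3 in WT vehicle, 19.9, 21.5 and 17.5 in WT DHPG, 20.1, 19.9 and 20.3 in Tsc2+/- vehicle and 22.4, 24.7 and 24.8 in Tsc2+/- DHPG CPM. Under DHPG all 3 Tsc2+/- RPF libraries were above all 3 WT libraries (log2 fold change 0.28, SE 0.12, adjusted p = 1), and in vehicle they overlapped (log2 fold change -0.047, SE 0.13, adjusted p = 0.963). Stard4 spanned 6.56 to 13 CPM in RNA and 9.89 to 15.6 in RPF, with its lowest RNA in Tsc2+/- DHPG replicate 3.

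Other genes of the same pathways gave no call either. Of 30 further genes of sterol, fatty acid and SREBP biology, 29 were tested in RNA and 27 in RPF and TE, and 0 were called in any of the 21 tests in edgeR, with 0 to 3 of them under an unadjusted p of 0.05 in each. The values with an unadjusted p under 0.01 were those of Acacb, the mitochondrial acetyl-CoA carboxylase, in RNA (log2 fold change 0.67, SE 0.23, adjusted p = 0.8, for DHPG in WT) and Acat1, a mitochondrial thiolase, in RNA (log2 fold change -0.20, SE 0.067, adjusted p = 0.8, for DHPG in WT). In RPF they were those of Abcg1, a cholesterol exporter, (log2 fold change -0.16, SE 0.055, adjusted p = 0.595, for genotype), Mbtps2, the protease that makes the second cut of SREBP, (log2 fold change 0.22, SE 0.073, adjusted p = 0.51, for DHPG) and Pgrmc1, a heme-binding partner of Cyp51, (log2 fold change 0.11, SE 0.040, adjusted p = 0.565, for DHPG). Acacb RNA for DHPG averaged over genotypes (log2 fold change 0.44, SE 0.15, adjusted p = 0.531) and Mbtps2 TE for DHPG in WT (log2 fold change 0.38, SE 0.14, adjusted p = 0.399) were the 2 other such values.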

How the data were processed

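RNA-seq and ribosome profiling were analysed in 24 libraries. The deposited files hold expected counts of each gene, estimated with RSEM and rounded by the authors. The authors removed adapters with Cutadapt, discarded rRNA and tRNA reads with Bowtie2, mapped to mm10 with TopHat2, and counted RNA over whole transcripts and RPF over coding sequences without 30 bases at each end. Reads carried molecular identifiers. Of the nonzero RPF counts of replicates 2 and 3, 97.9% to 98.5% were even, against 48.2% to 49% in replicate 1, with no reason given. With the counts of replicates 2 and 3 halved, 0 of 30 genes were called in all 14 RPF and TE tests. The RPF depths and low counts printed here are those deposited, before halving. No column was left without a sample.

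Genes were kept with filterByExpr (minimum count 10), scaled by TMM and tested two-sided in edgeR 4.0.16 (R 4.3.3, quasi-likelihood F test, robust) with terms for group and replicate number, over all libraries of an assay. TE was the interaction of assay and group over 24 libraries, with replicate number within assay and no term for the shared lysate. With a lysate block added, 0 of 30 genes were called in all 7 TE tests. P-values were adjusted by Benjamini-Hochberg and called under 0.1. The SE came from the F statistic. Levels are CPM after TMM, and per-length levels used RefSeq lengths (GRCm38.p6, the mm10 assembly), with 60 bases taken off each coding length, for 95.4% of genes tested. The procedure was tested on simulated counts. No pair of replicates agreed within sampling noise (chi-square per degree of freedom 2.95 to 11.2).

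The members, lists and tests were chosen with earlier results of these data known. Values in every library are given for genes called or with an unadjusted p under 0.01 in any test, and for Hmgcs1, Idi1, Sqle, Cyp51, Insig1, Scap, Srebf1, Srebf2, Fasn, Acaca, Acly, Scd1, Scd2 and Lpin1. Cell type markers were summed by list. Alternatives were no replicate block, RLE scaling, no filter, DESeq2 1.42.0, ComBat (sva 3.50.0) then DESeq2, a threshold of 0.05, only the groups compared, a lysate block for TE, and fits without each replicate number or each library in turn.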

Additional observations from a re-analysis of the deposited data

How the results depend on the processing

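The replicate number was in the model because the study corrected for batch, which the number was taken to stand for. The labels do not say what the number marks. Over 18 same-numbered pairs per assay the deviations from group means correlated at 0.0013 to 0.22 in RNA and 0.050 to 0.29 in RPF, against at most 0.059 and 0.077 for other pairs, and 12 of 12 libraries of each assay correlated best with one of their own number, a hint from the data and not from the design. With no replicate block, 0 of 30 genes were called in all 21 tests, as with it.

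Of 474 counts of called genes under other settings, 470 equalled the reported 0. Of these, 21 applied a threshold of 0.05 to the same fits and could only be 0. For RNA genotype averaged over treatments, DESeq2 with the same design called 1 gene, Scd1, and leaving out libraries gave 0 to 1. For TE, leaving out lysates gave 0 to 1 for genotype in vehicle and 0 to 2 for DHPG in WT, each exception without WT vehicle replicate 2. In that TE fit the number of all genes called for DHPG in WT rose as well, as given for Msmo1, so these counts are not particular to the list. Of 264 medians, 259 moved by less than their spread between replicates. Those that moved further were of DHPG in Tsc2+/-. There leaving out libraries gave medians of -0.0067 to 0.032 in RNA, -0.031 to 0.020 in RPF and -0.050 to 0.018 in TE. Yet for 10 of the 12 medians refitted without libraries the sign differed among the fits, so they carry no direction. The medians that kept their sign were those of DHPG in WT in RNA (0.00033 to 0.049) and RPF (0.024 to 0.056). The number of genes under an unadjusted p of 0.05 moved by over 1.5 times in 142 of 453 fits. Over 344 values of single genes, no direction reversed. These were refits of values with an unadjusted p under 0.01, and of others added because a fit without 1 lysate called them. Values so chosen could hardly reverse, so this says nothing of the direction of the other genes. Why these values moved was not tested. Low RPF counts, down to 18 in 1 library, limit Acat2.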
